A study of Mus musculus with 8 samples.

Results

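The 8 organic ion transporter genes followed here, 4 of the Slco family and 4 of the Slc22 family, were compared between CT26 cells with and without a knockout of Tead1 and Tead4. They were chosen by symbol (Slco2b1, Slco2a1, Slco3a1, Slco4a1, Slc22a4, Slc22a5, Slc22a17 and Slc22a18) and are 8 of 26642 rows in the count table and 8 of 40 rows whose symbol starts with Slco or Slc22a. CT26 is an established mouse colon carcinoma line. mRNA libraries were made from 4 samples labelled WT and 4 samples labelled Tead1/4 knockout, and both groups were grown in RPMI medium with serum. The labels give no editing method, do not tell a clone from a pool of knockout cells, and do not tell separate cultures from repeat libraries of one culture; the p-values below therefore reflect only how far libraries of a group differ, which may be a technical spread. Slco2b1 and Slc22a18 were singled out, and the other 6 genes set beside them, with the genotype differences known, so these differences are described for the 8 genes without p-values.

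Organic anion transporting polypeptides, the Slco products, take up amphipathic anions such as steroid sulfates, bile acids, thyroid hormones, prostaglandins and many drugs without using the sodium gradient. The Slc22 products carry organic cations, zwitterions and anions, and include the carnitine and ergothioneine carriers. In the intestine such carriers govern the entry of nutrients, hormone conjugates and drugs into the epithelium. TEAD proteins are the DNA-binding factors through which YAP and TAZ act at the end of Hippo signalling.

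Library totals ran from 29679405 to 32774905 counts. Levels are in CPM, counts scaled to sequencing depth with TMM (trimmed mean of M values) factors, and are given as mean ± SD with n = 4 per genotype. A log2 fold change is knockout minus WT with its standard error (SE), from edgeR's quasi-likelihood fit over 13265 rows, in which a call is an adjusted p under 0.05. Tead1 was at 51.2 to 77.8 CPM in the knockout libraries and 142 to 319 CPM in WT. Tead4 was at 23.3 to 37.01 CPM and 36.7 to 63.2 CPM, so its libraries overlapped at the edge. Both targeted mRNAs were lower on average and still detected; gene counts do not measure loss of protein. Knockout replicate 1 stood apart from its group, with 14345 rows above 0 against 17759 to 17948 in the other knockout libraries. The WT libraries had 14566 to 15430, so on this measure knockout replicate 1 was nearer to WT. WT replicates 1 and 4 were close to each other, as were WT replicates 2 and 3 (chi-square per degree of freedom 34.7 and 35.0, against 201 to 242 for the remaining WT pairs). Knockout pairs ran from 66.4 (replicates 2 and 4) to 257 (replicates 1 and 3). Results that change without a library, or with each close WT pair summed into 1 library, are given with those values. The colon epithelial markers summed to 56.8 to 106 CPM in WT and 105 to 143 CPM in the knockout libraries. Nearly all of this was Krt18 and Krt20. Krt8, at 0.328 ± 0.230 CPM in WT and 0.896 ± 0.0975 CPM in the knockout libraries, was not called (edgeR adjusted p = 0.121). Its knockout libraries all exceeded the WT libraries. Krt20, at 34.6 ± 19.2 CPM in WT and 47.4 ± 9.12 CPM in the knockout libraries, was not called (edgeR adjusted p = 0.289). It was called higher without WT replicate 4 (log2 fold change 0.88, edgeR adjusted p = 0.017), which had 62.9 CPM. Krt19, Vil1, Cdx2 and Cldn7 had too few counts to be tested. Epcam had no count in any library and Cdh1 10 counts over all knockout libraries and none in WT, while Krt18 rose from 38.5 ± 2.93 to 76.3 ± 8.65 CPM (edgeR adjusted p = 0.00107). In bulk RNA, fewer cells of a type and less RNA per cell cannot be told apart.

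The windows around annotated start sites of Slco2b1, Slc22a18 and Slco4a1 are shown because the knockout libraries of these 3 genes all exceeded the WT libraries, as those of 21.1% of the 13265 rows did, and an element near the start would lie there. RefSeq on GRCm38.p6 gave windows for 7 of the 8 genes, all but Slco3a1, and 10 windows in all, each from 250 bases before to 50 bases after a start. Capitals mark GGAATG, the core of the TEAD site, and TGANTCA, the AP-1 site, on either strand. Each window is written 5′ to 3′ on the gene's strand.
Slco2b1 window 1 (chr7:99711291-99711590, minus strand): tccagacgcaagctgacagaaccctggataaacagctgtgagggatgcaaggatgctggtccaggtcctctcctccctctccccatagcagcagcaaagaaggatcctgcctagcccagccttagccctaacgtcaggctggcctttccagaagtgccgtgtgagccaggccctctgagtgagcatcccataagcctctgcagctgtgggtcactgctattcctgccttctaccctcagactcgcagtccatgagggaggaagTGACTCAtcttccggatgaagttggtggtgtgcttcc
Slco2b1 window 2 (chr7:99706793-99707092, minus strand): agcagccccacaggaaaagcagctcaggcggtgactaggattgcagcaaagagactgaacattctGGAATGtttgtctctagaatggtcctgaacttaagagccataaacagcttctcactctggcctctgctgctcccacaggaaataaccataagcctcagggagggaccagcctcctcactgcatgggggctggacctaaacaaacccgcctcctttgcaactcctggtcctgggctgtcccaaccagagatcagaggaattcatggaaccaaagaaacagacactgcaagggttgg
Slco2b1 window 3 (chr7:99695760-99696059, minus strand): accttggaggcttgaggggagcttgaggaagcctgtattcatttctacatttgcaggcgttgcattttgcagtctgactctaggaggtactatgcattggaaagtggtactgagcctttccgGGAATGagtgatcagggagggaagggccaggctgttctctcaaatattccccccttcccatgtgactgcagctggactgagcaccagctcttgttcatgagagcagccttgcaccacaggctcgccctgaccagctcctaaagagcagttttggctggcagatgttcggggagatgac
Slc22a18 window 1 (chr7:143473539-143473838, plus strand): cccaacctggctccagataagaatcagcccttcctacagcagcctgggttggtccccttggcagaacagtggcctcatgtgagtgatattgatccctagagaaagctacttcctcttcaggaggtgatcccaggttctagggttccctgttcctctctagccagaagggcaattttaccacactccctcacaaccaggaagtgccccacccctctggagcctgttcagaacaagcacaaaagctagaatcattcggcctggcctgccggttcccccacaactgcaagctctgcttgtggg
Slco4a1 window 1 (chr2:180455995-180456294, plus strand): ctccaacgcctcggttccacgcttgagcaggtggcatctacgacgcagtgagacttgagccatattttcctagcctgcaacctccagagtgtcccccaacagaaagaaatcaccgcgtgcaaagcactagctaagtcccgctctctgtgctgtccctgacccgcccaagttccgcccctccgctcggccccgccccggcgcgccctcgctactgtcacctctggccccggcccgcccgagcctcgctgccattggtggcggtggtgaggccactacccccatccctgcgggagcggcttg
Slco4a1 window 2 (chr2:180460728-180461027, plus strand): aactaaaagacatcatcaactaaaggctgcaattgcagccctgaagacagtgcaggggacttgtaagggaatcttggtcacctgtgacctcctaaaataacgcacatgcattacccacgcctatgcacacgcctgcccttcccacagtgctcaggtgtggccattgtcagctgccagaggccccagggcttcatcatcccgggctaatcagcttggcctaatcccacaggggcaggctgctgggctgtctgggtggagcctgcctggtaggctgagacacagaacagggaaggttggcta

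Slco2b1 held GGAATG once in window 2, 185 bases before the start, and once in window 3, 128 bases before it, and TGANTCA once in window 1, 13 bases after the start. None of the other 7 windows, including those of Slc22a18 and Slco4a1, held either motif, and none of the 10 held the core of the interferon-stimulated element. Of 32851 mouse windows of this length, 14.7% held GGAATG, 7.81% TGANTCA and 3.44% the interferon element on either strand. Gene counts do not show which start sites CT26 cells use. The windows differed in CpG content. Slc22a18 had 2 CpG and the 3 Slco2b1 windows 2 to 5, against 24 and 4 in the Slco4a1 windows, 29 in that of Slc22a4, 34 in that of Slc22a5 and a median of 7 over all windows.

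Among the Slco genes, Slco2b1 was near 0 in WT and present in every knockout library. Slco2b1 (ENSMUSG00000030737; GRCm38 chromosome 7, 99657804 to 99711340, minus strand) encodes an uptake carrier for steroid sulfates and many drugs. Its counts were 0, 2, 0 and 0 in WT replicates 1 to 4 and 344, 503, 664 and 523 in knockout replicates 1 to 4. On the CPM scale the knockout libraries stood at 10.9, 15.3, 19.3 and 15.98. The genotypes did not overlap, and knockout replicate 1 was the lowest of its group. The ratio of knockout to WT, from 2034 against 2 counts scaled to depth, was 884 (95% exact counting interval 244 to 7301, which covers counting error only). The fitted log2 fold change of 9.48 (SE 0.57) depends on the prior count, since 3 WT libraries were at 0, and it was 11.89 when WT replicate 2 was left out. With any other library left out it lay between 9.10 and 9.60. Exons of Slco2b1 overlap those of the antisense transcripts Gm15635 and Gm34280. No source used here says whether the counting used strand, so reads of the antisense transcripts cannot be told apart from its own.

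Slco4a1 was the most abundant Slco gene and varied widely between libraries. It encodes a broadly expressed carrier of thyroid hormones and bile acids (ENSMUSG00000038963; chromosome 2, 180456245 to 180474867, plus strand). WT replicates 1 to 4 had 31.7, 46.8, 58.9 and 12.1 CPM, and knockout replicates 1 to 4 had 122, 301, 71.3 and 76.2 CPM. The groups did not overlap, but the lowest knockout library exceeded the highest WT library by a factor of only 1.21. The highest library was 4.86 times the lowest within WT and 4.21 times within the knockout group, where replicate 2 was the high one. The within-genotype SD of log2(CPM + 0.5) was 0.97, larger than that of 98.7% of the rows tested, whose median was 0.31. The log2 fold change was 1.93 (SE 0.56). It was no longer past the threshold without knockout replicate 2 (1.27), without WT replicate 1 (1.85) or with the WT pairs summed (1.90). Within 250 kb of its start 6 genes were tested and 3 rose, where 20.9% of all rows did: Rps21, a ribosomal protein gene (log2 fold change 2.38, edgeR adjusted p = 0.0136; log2 fold change 3.32 without WT replicate 3), Col9a3, a collagen gene (3.05, adjusted p = 0.0122; log2 fold change 3.82 without WT replicate 3), and Ogfr, an opioid growth factor receptor gene (0.95, adjusted p = 0.0108; 0.0576 with the WT pairs summed).

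Slco2a1, which encodes the prostaglandin transporter (ENSMUSG00000032548; chromosome 9, 102988712 to 103096002, plus strand), was lower on average in the knockout group, with overlapping libraries. It had 0.883, 0.375, 0.404 and 3.69 CPM in WT replicates 1 to 4 and 0, 0.426, 0.843 and 0.795 CPM in knockout replicates 1 to 4. WT replicate 4 alone set the WT mean of 1.34 ± 1.59 CPM. The log2 fold change of -1.36 (SE 0.99) was not past the threshold and was -0.11 without that library. Exon sequence of Slco2a1 overlaps the rRNA gene n-R5s89 on the other strand. With strand use unknown, reads of that gene cannot be told apart from its own. Both tested genes within 250 kb of the Slco2a1 start fell, where 20.6% of all 13265 rows did. Ryk fell by 0.69 on the log2 scale (edgeR adjusted p = 0.0107) and Srprb by 0.62 (adjusted p = 0.00722). Slco3a1 (ENSMUSG00000025790; chromosome 7, 74275419 to 74554780, minus strand), a carrier of prostaglandins and thyroid hormone, had a count of 0 in all 8 libraries. If the gene was counted, which the table does not show, a count of 0 allows up to 3 counts, or 0.0873 to 0.110 CPM depending on the library.

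Among the Slc22 genes, Slc22a18 had a wide difference and a small spread within each genotype. It encodes a membrane carrier of the organic cation group and lies in an imprinted domain, where the maternal copy is the expressed one (ENSMUSG00000000154; chromosome 7, 143473736 to 143499334, plus strand; no other annotated gene overlaps it). WT replicates 1 to 4 had 1.55, 1.47, 1.04 and 1.14 CPM, from 42, 43, 31 and 32 counts. Knockout replicates 1 to 4 had 11.3, 12.9, 12.2 and 11.8 CPM, from 359, 424, 418 and 385 counts. The groups did not overlap, and the lowest knockout library was 7.34 times the highest WT library. The group means, 1.298 ± 0.245 and 12.04 ± 0.667 CPM, differed 9.28-fold (log2 fold change 3.21, SE 0.22). The close WT pairs did not order this gene, as WT replicates 1 and 2 were the higher ones. The highest library was 1.48 times the lowest within WT and 1.14 times within the knockout group. Its within-genotype SD of log2(CPM + 0.5) was 0.15, at percentile 9.98 of the rows tested. The offset of 0.5 narrows this spread at the low WT level of Slc22a18 more than in rows near the median WT level of 29.1 CPM. Under all 17 alternatives its log2 fold change lay between 3.10 and 3.39.

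Slc22a4 and Slc22a5 were expressed in both genotypes and overlapped between them. Slc22a4 encodes OCTN1, a carrier of ergothioneine (ENSMUSG00000020334; chromosome 11, 53983123 to 54028090, minus strand). It had 8.46, 13.5, 15.4 and 10.6 CPM in WT replicates 1 to 4 and 15.7, 14.2, 18.1 and 18.1 CPM in knockout replicates 1 to 4. Slc22a5 encodes OCTN2, the sodium-dependent carnitine carrier (ENSMUSG00000018900; chromosome 11, 53864542 to 53891660, minus strand). It had 4.38, 10.2, 9.43 and 6.105 CPM in WT and 10.1, 11.7, 14.4 and 11.4 CPM in the knockout libraries. For both genes WT replicates 1 and 4 were below every other library, and WT replicates 2 and 3 were higher. Among the latter, 1 library passed the lowest knockout library, replicate 3 for Slc22a4 and replicate 2 for Slc22a5. The WT libraries thus divided as in the overall comparison of replicates, and those of Slco4a1 did so too. The log2 fold changes were 0.46 (SE 0.21) and 0.66 (SE 0.28). Neither was past the threshold, but that of Slc22a5 passed it with DESeq2 (0.67) and without WT replicate 2 (0.84). The ratio of Slc22a4 to Slc22a5 in CPM was between 1.32 and 1.93 in WT and between 1.21 and 1.59 in the knockout libraries. Slc22a17, which encodes a receptor for lipocalin 2 (ENSMUSG00000022199; chromosome 14, 54906304 to 54913132, minus strand), had a count of 0 in all 8 libraries, with the same limit.

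**Figure D1:**
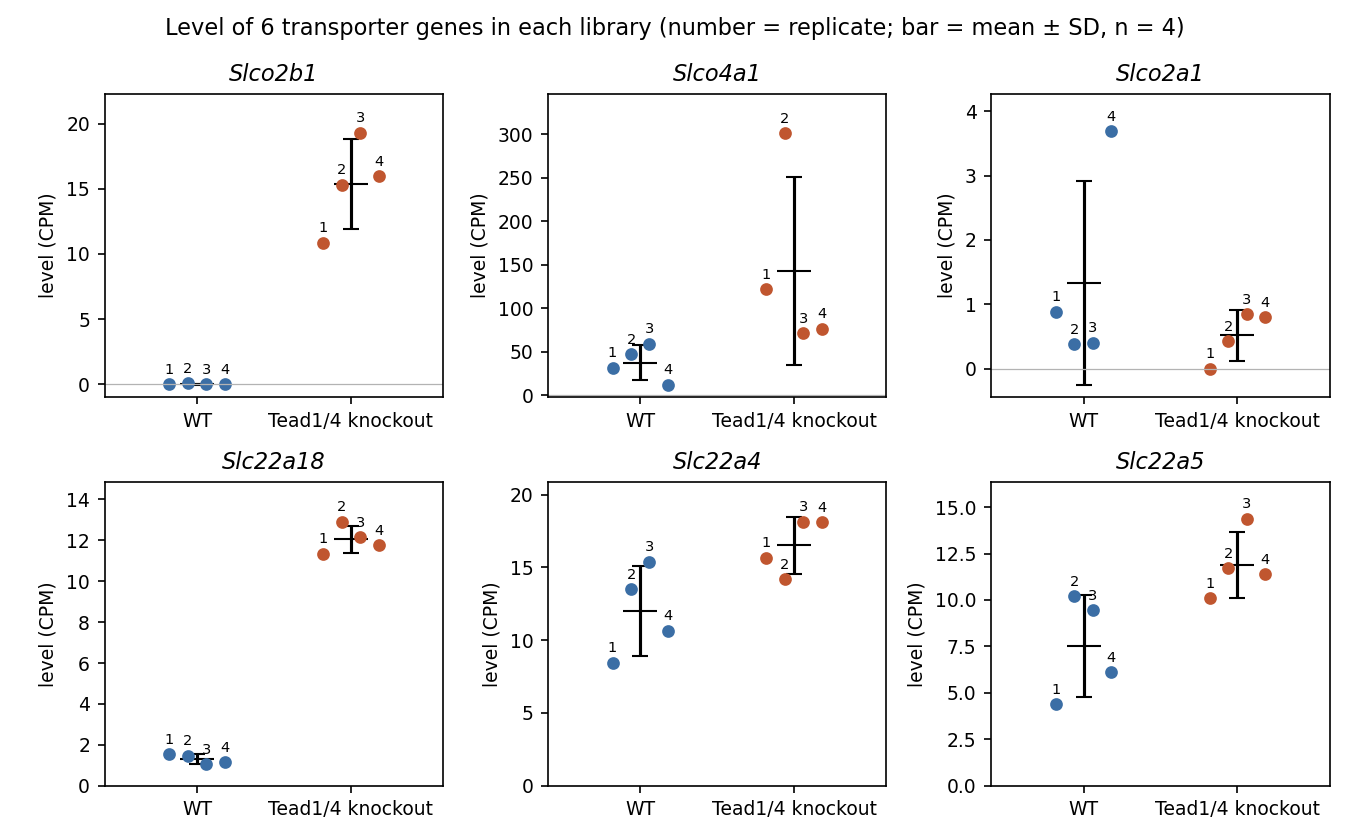
Level in CPM (vertical axis, linear, with its own range in each panel) of the 6 transporter genes with counts, in the 4 WT (blue) and 4 Tead1/4 knockout (orange) libraries; points are libraries numbered by replicate, and bars are mean ± SD. Slco2b1 and Slc22a18 separate the genotypes widely, Slco4a1 separates them by a factor of 1.21 at its closest points, and the other 3 genes overlap.

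Of the 8 genes, 6 had enough counts to be tested, and Slco2b1 had them only through the knockout libraries. Among these 6, Slco2b1, Slc22a18 and Slco4a1 were called higher and none lower, where 20.9% of all 13265 rows were called higher and 20.6% lower (41.6% in either direction). The libraries of the 2 genotypes did not overlap for 40.7% of all rows. Because the genes were chosen on this contrast, nothing is read from these counts. TMM scaling placed 50.4% of all calls on the higher side, upper-quartile scaling 64.6% and library size alone 63.5%. Over all rows, the median log2 fold change was 0.02 with TMM and 0.20 with either of these scalings.

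The rest of both families was read in the same way. Of 14 Slco rows 6, and of 26 Slc22a rows 14, had no count in any library. Slc22a6 and Slc22a8, renal organic anion transporters, were among them. A further 7 paralogs were tested, and none was called in either direction, where 41.6% of all 13265 rows were called. Slc22a23, an orphan member, was the highest of them, with 45.01 to 91.3 CPM in WT and 81.1 to 116 CPM in the knockout libraries (log2 fold change 0.41, SE 0.22, edgeR adjusted p = 0.151). Slco1a5, a bile acid and thyroid hormone carrier, had 8.81 ± 2.87 CPM in WT and 11.8 ± 2.01 CPM in the knockout libraries (adjusted p = 0.19; 0.0425 without WT replicate 4, with a log2 fold change of 0.64). Slc22a15 was at 6.83 ± 0.548 CPM in WT and 5.11 ± 0.299 CPM in the knockout libraries, with every knockout library below every WT library (log2 fold change -0.42, SE 0.19, adjusted p = 0.096; 0.0448 with DESeq2). Slc22a14 was at 1.498 ± 1.43 CPM in WT and 3.87 ± 0.459 CPM in the knockout libraries (adjusted p = 0.215). Its WT libraries divided like those of Slc22a4, with 3.14 and 2.19 CPM in replicates 2 and 3 and 0.662 and 0 CPM in replicates 1 and 4. Slc22a29 was at 1.74 ± 1.08 CPM in WT and 1.82 ± 0.337 CPM in the knockout libraries (adjusted p = 0.929).

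Slc22a21, a carnitine carrier gene, lies 2.79 kb from Slc22a4 and 58.3 kb from Slc22a5. It was at 1.86 ± 0.496 CPM in WT and 3.73 ± 1.44 CPM in the knockout libraries (log2 fold change 1.00, SE 0.38, edgeR adjusted p = 0.0548). Knockout replicate 1, at 1.83 CPM, lay among the WT libraries, and the others were at 3.44 to 5.06 CPM. Without that library the log2 fold change was 1.22 (adjusted p = 0.0108). The call was also made with DESeq2, upper-quartile factors and library size alone (adjusted p = 0.0253, 0.0379 and 0.0415). The Slc22a4, Slc22a5 and Slc22a21 products are related in sequence, and no source used here says how reads shared by similar genes were counted.

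**Figure D2:**
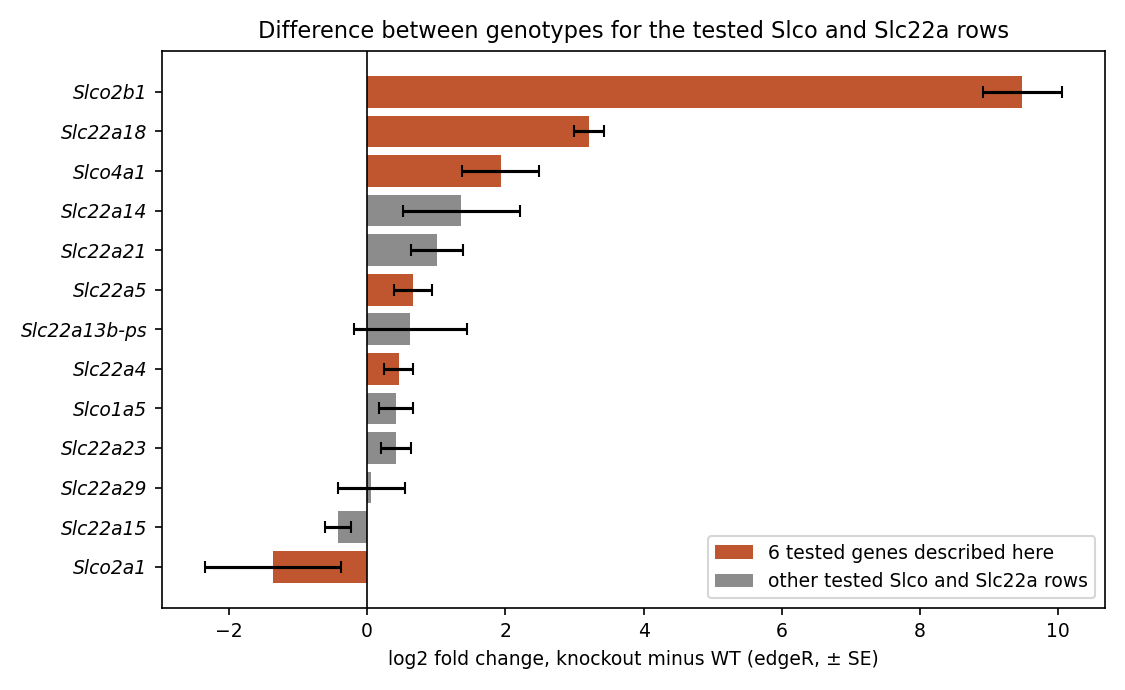
Log2 fold change, knockout minus WT, with its SE (horizontal axis) for the 13 tested Slco and Slc22a rows; orange bars are the 6 genes described and grey bars the 7 other rows. Slco2b1 (9.48, a value that depends on the prior count because WT is near 0) and Slc22a18 (3.21) lie farthest from 0, and Slco2a1 (-1.36) is on the negative side with a wide SE.

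Levels of different genes were compared in CPM per kb of annotated exon sequence (GENCODE M21). In WT the order was Slc22a23 at 11.2 ± 3.13 CPM per kb, Slco4a1 at 7.79 ± 4.205, Slc22a4 at 4.703 ± 1.200, Slc22a5 at 2.45 ± 0.897 and Slco1a5 at 2.37 ± 0.772 CPM per kb. Slc22a18 was in place 7 at 0.764 ± 0.144 CPM per kb, Slco2a1 in place 12 at 0.0988 ± 0.117 CPM per kb, and Slco2b1 was last of the 16 rows with any WT count. Neighbours in the first 5 places differed by less than the larger SD of the pair, except Slc22a4 and Slc22a5, whose difference exceeded both SDs. In the knockout libraries Slco4a1 was first at 29.7 ± 22.5 CPM per kb, followed by Slc22a23 at 14.9 ± 2.28, Slc22a18 at 7.09 ± 0.393, Slc22a4 at 6.48 ± 0.762 and Slc22a5 at 3.88 ± 0.582 CPM per kb. Slco2b1 was in place 7 there at 2.58 ± 0.583 CPM per kb. Slc22a18 and Slc22a4 differed in the knockout libraries by less than the SD of Slc22a4, whereas in WT their libraries did not overlap (0.615 to 0.910 against 3.32 to 6.03 CPM per kb). With the longest transcript as the length these genes were again next to each other in the knockout libraries (7.76 and 7.31 CPM per kb), and Slco4a1 came first in WT too.

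**Figure D3:**
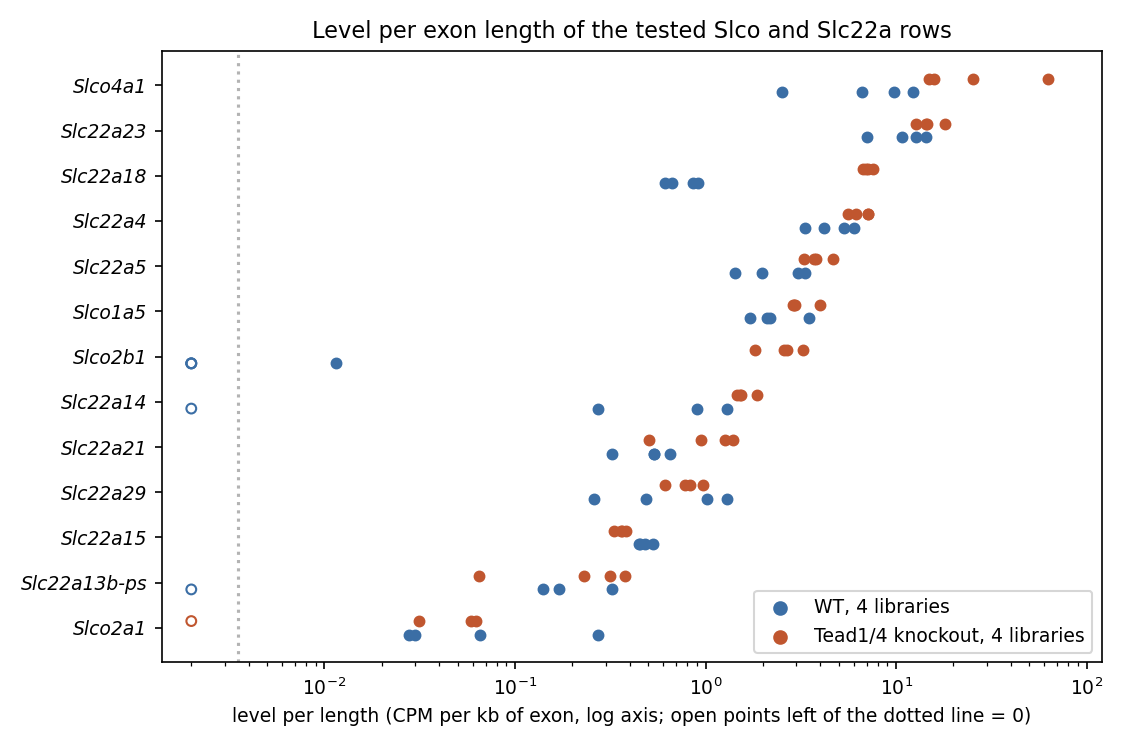
Level per length in CPM per kb of exon (horizontal log axis) of the 13 tested Slco and Slc22a rows, ordered by their knockout mean; each point is a library, blue for WT and orange for knockout, and open points left of the dotted line are counts of 0. Slc22a18 lies at 0.615 to 0.910 CPM per kb in WT, its knockout points overlap those of Slc22a4, and 3 of the 4 WT points of Slco2b1 are at 0.

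The genes around Slco2b1 and Slc22a18 were compared next. Within 250 kb of the Slco2b1 start 4 genes were tested and none was called, with log2 fold changes of 0.02 for Spcs2, 0.72 for Neu3, 0.20 for Arrb1 and 0.79 for Rps3 (edgeR adjusted p = 0.906, 0.104, 0.387 and 0.0677). Rps3, a ribosomal protein gene, was called higher without WT replicate 3 (1.06, adjusted p = 0.0185), with DESeq2 (0.0265), with limma-voom (0.0384), with at least 5 CPM in 4 libraries (0.0497), and with upper-quartile factors or library size alone (0.0446 and 0.0455). Around Slc22a18, Cdkn1c and Phlda2, its closest imprinted neighbours and both growth restraining, had 7 and 1 counts over the knockout libraries, each in 1 library (replicates 4 and 2), and none in WT. Of the 5 tested genes in that window Cars, which encodes a cysteinyl-tRNA synthetase, passed the threshold, falling from 308 ± 27.9 to 210.1 ± 40.02 CPM (adjusted p = 0.0227). That call was lost with upper-quartile factors (0.0596), with the WT pairs summed (0.0876) and without WT replicates 1 or 2 or knockout replicates 2, 3 or 4 (0.0515 to 0.0732).

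A wider list held 24 symbols of this imprinted region and its flanks, of which 13 were tested. Slc22a18 itself was called higher, 4 others rose and Cars fell, where 20.9% of all rows rose and 20.6% fell. Tspan32, a tetraspanin gene, had 2.87 ± 1.802 CPM in WT and rose to 29.7 ± 5.46 CPM in the knockout libraries (edgeR adjusted p = 0.00085, log2 fold change 3.36, SE 0.44). Smaller increases were found for Cd81 (log2 fold change 0.68, adjusted p = 0.0164), Nadsyn1 (0.83, adjusted p = 0.0161) and Trpm5 (2.21, adjusted p = 0.0484). The call for Cd81 was lost without WT replicate 4 (0.0559) and that for Nadsyn1 without knockout replicate 3 (0.056). Trpm5 lost its call without any 1 of 7 libraries, all but knockout replicate 1 (0.0637 to 0.13), without a filter on low counts (0.0668), with limma-voom (0.0567) and with the replicate block (0.0769). With the WT pairs summed all 3 were lost (0.0757, 0.0667 and 0.12). Osbpl5 (0.39), Tnfrsf26 (0.70), Dhcr7 (-0.59), Nap1l4 (-0.29), Tssc4 (-0.43), Tnfrsf23 (0.35) and Tnfrsf22 (0.14) were not called. Osbpl5 was called higher under 7 of 17 alternatives, 1 of them without WT replicate 3 (adjusted p = 0.0193 to 0.0469). Tnfrsf26, whose knockout libraries all exceeded the WT libraries, was called higher with upper-quartile factors, library size alone, DESeq2 and limma-voom (0.0168 to 0.0484). Dhcr7, Nap1l4 and Tssc4 were called lower without knockout replicate 1 (0.000839, 0.0294 and 0.0251), and Dhcr7 also with DESeq2, limma-voom and the replicate block (0.0308, 0.0312 and 0.0334).

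On chromosome 11 the list around Slc22a4 and Slc22a5 held 9 tested genes, these 2 included; 3 of the others rose and 1 fell, where 20.9% of all rows rose and 20.6% fell. Irf1, an interferon-induced transcription factor gene 86.2 kb from Slc22a5, rose from 27.97 ± 6.99 to 54.4 ± 10.7 CPM (edgeR adjusted p = 0.00686). Csf2, which encodes GM-CSF, rose from 0.163 ± 0.199 to 2.45 ± 1.55 CPM (adjusted p = 0.011; 0.0613 with the WT pairs summed; log2 fold change 3.9, and 4.84 without WT replicate 1). Pdlim4 rose from 0.125 ± 0.0956 to 0.840 ± 0.2004 CPM (adjusted p = 0.0108). Rad50, a DNA repair gene, fell from 109.7 ± 42.6 to 50.2 ± 12.5 CPM (adjusted p = 0.0123). P4ha2 (0.38) and Fnip1 (0.38) were not called; both were called higher with upper-quartile factors (adjusted p = 0.0115 and 0.0394) and library size alone (0.00974 and 0.0415), and P4ha2 also with at least 5 CPM in 4 libraries and with DESeq2 (0.0251 and 0.0335).

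**Figure D4:**
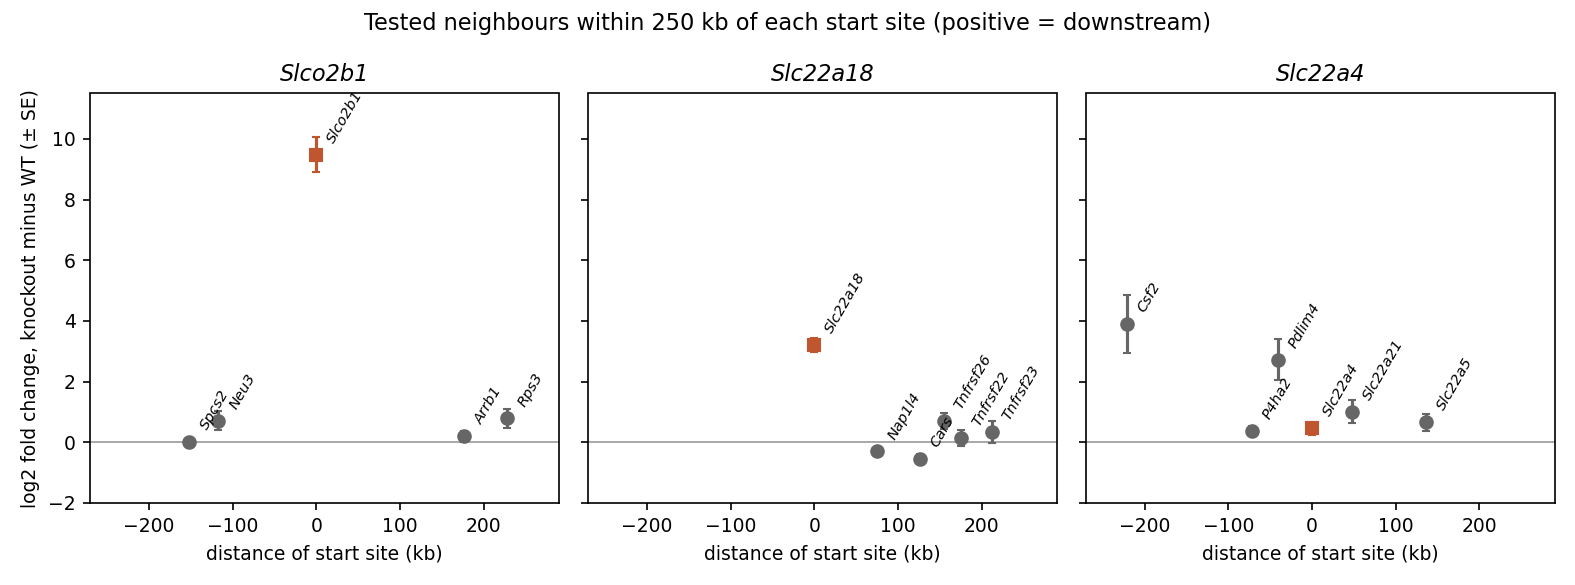
Log2 fold change, knockout minus WT, with SE (vertical axis) of the tested genes within 250 kb of the start sites of Slco2b1, Slc22a18 and Slc22a4, against the distance of their own start sites in kb (horizontal axis; positive is downstream). The orange square is the gene named above the panel; the neighbours of Slco2b1 lie between 0.02 and 0.79 and those of Slc22a18 between -0.55 and 0.70.

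Genes that handle the substrates of these carriers were read next. Of 12 tested genes of carnitine synthesis, the carnitine shuttle and the fatty acid oxidation it feeds, 5 rose and none fell (median log2 fold change 0.22). Over all 13265 rows 20.9% rose and 20.6% fell, with a median of 0.02, and the counts of the lists that follow stand beside the same values. Acadvl, an acyl-CoA dehydrogenase, rose from 26.3 ± 13.7 to 66.5 ± 3.95 CPM (edgeR adjusted p = 0.0102). Crot, the peroxisomal carnitine octanoyltransferase, rose from 54.4 ± 12.05 to 87.8 ± 3.44 CPM (adjusted p = 0.0108), and Slc25a20, the mitochondrial carnitine carrier, from 10.3 ± 2.28 to 17.4 ± 2.06 CPM (adjusted p = 0.0139). With the WT pairs summed the last 2 calls were lost (adjusted p = 0.0575 and 0.061). Bbox1, the last enzyme of carnitine synthesis, had 14 counts in knockout replicates 2 and 3 and none in the other libraries.

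For the substrate of Slco2a1, 5 of 12 tested genes of prostaglandin synthesis, breakdown, export and signalling rose and none fell, where 20.9% of all rows rose and 20.6% fell (median log2 fold change 0.69). Ptges, a prostaglandin E synthase, rose from 106 ± 12.8 to 319.5 ± 70.8 CPM (edgeR adjusted p = 0.000673), and Ptgds, a prostaglandin D synthase, from 0.432 ± 0.499 to 103 ± 84.4 CPM (adjusted p = 0.000973; log2 fold change 7.86, and 7.17 without knockout replicate 2). Ptgis, the prostacyclin synthase, had no count in WT and 0.937 ± 0.250 CPM in the knockout libraries (adjusted p = 0.0013). Hpgd, which degrades prostaglandins after uptake, had no count in any library. Abcc4, which exports them, was at 213 ± 30.6 CPM in WT and 171 ± 27.1 CPM in the knockout libraries (adjusted p = 0.143).

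Of 9 tested genes of thyroid hormone and steroid sulfate handling 2 rose and 2 fell (median log2 fold change 0.13). Slc7a5, an amino acid carrier that also takes up thyroid hormone, had 643, 613, 539.8 and 754 CPM in WT and 309, 121, 205 and 233 CPM in the knockout libraries, and its mean fell from 638 ± 88.8 to 217 ± 77.8 CPM (edgeR adjusted p = 0.00241). Hsd17b7, a steroid dehydrogenase, fell to 15.7 ± 3.18 CPM in the knockout libraries, against 32.4 ± 7.56 CPM (adjusted p = 0.00489). Thra, a thyroid hormone receptor gene, rose from 21.6 ± 8.597 to 53.3 ± 7.18 CPM (adjusted p = 0.00541). Of 22 other polyspecific, nucleoside, folate, peptide and bile acid carriers 8 were tested, 4 fell and none rose (median log2 fold change -0.40). Slc19a1, the reduced folate carrier, dropped to 21.3 ± 2.71 CPM from a WT level of 61.1 ± 10.2 CPM (adjusted p = 0.000492). The nucleoside carriers Slc29a1 (157 ± 26.8 to 77.8 ± 19.5 CPM, adjusted p = 0.00425) and Slc29a2 (16.9 ± 2.25 to 8.64 ± 2.72 CPM, adjusted p = 0.0106) fell as well. Slc47a1 and Slc47a2, the exporters that pair with organic cation uptake in kidney and liver, had no count in any library.

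Nuclear receptors for xenobiotics, bile acids and sterols, which control many carrier genes, included 3 increases and no decrease among 9 tested (median log2 fold change 0.50). Nr1h4, the bile acid receptor FXR, rose from 0.919 ± 0.456 to 3.07 ± 0.686 CPM (edgeR adjusted p = 0.00935). Nr1h2, an oxysterol receptor gene, rose from 90.5 ± 13.4 to 134 ± 7.08 CPM (adjusted p = 0.0107; 0.0636 with the WT pairs summed). Vdr, the vitamin D receptor, rose from 3.61 ± 0.476 to 6.83 ± 2.34 CPM (adjusted p = 0.0268). The Vdr call was lost with the replicate block (0.0512), with the WT pairs summed (0.12) and without WT replicates 2, 3 or 4 or knockout replicates 1 or 2 (0.0522 to 0.0761).

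In the list of lipocalin 2 and iron uptake genes 2 rose and 2 fell among 7 tested (median log2 fold change 0.38). Lcn2, the ligand of the Slc22a17 product, rose from 0.547 ± 0.319 to 18.7 ± 12.2 CPM (edgeR adjusted p = 0.000578), while Slc22a17 itself was listed at 0 counts. Bdh2, which makes a mammalian siderophore, rose from 0.447 ± 0.335 to 5.03 ± 1.82 CPM (adjusted p = 0.00221). Slc11a2, an iron carrier, fell from 75.6 ± 7.59 to 52.5 ± 3.37 CPM (adjusted p = 0.0108; 0.0578 and 0.0643 with upper-quartile factors and library size alone), and Tfrc, the transferrin receptor, fell by 1.89 on the log2 scale (SE 0.50, adjusted p = 0.0144; 0.0623 with the WT pairs summed), and the log2 fold change was -2.53 without knockout replicate 1. Of 2 tested PDZ adaptors that hold such carriers at the membrane, Slc9a3r2 rose from 15.2 ± 3.796 to 30.3 ± 4.54 CPM (adjusted p = 0.00538). Slc9a3r1 was not called (log2 fold change -0.59, adjusted p = 0.101), but was called lower without knockout replicate 1 (-0.91, adjusted p = 0.00596).

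Likeness of profile was measured as the root mean square difference between log2(CPM + 0.5) profiles over the 8 libraries, each centred on its mean, among 10808 annotated genes. The closest to Slco2b1 were Slfn2 (0.38), Zbp1 (0.40) and Ifit3 (0.41), which are interferon-responsive genes. Slfn2 was at 0.246 ± 0.324 CPM in WT and 15.9 ± 2.63 CPM in the knockout libraries, Zbp1 at 0.972 ± 0.741 and 34.8 ± 6.91 CPM, and Ifit3 at 1.38 ± 0.845 and 55.04 ± 19.9 CPM. Without WT replicate 2 the log2 fold change of Slfn2 was 7.18 against 5.96, and that of Zbp1 5.75 against 5.15. The closest to Slc22a18 were Clu, which encodes clusterin (0.20), Clec1a (0.23) and Efcab8 (0.24). Clu was at 10.7 ± 3.43 and 78.5 ± 10.9 CPM, and Clec1a had no count in WT and 3.66 ± 0.922 CPM in the knockout libraries. Efcab8 was at 0.0276 ± 0.0552 and 2.42 ± 0.451 CPM. The offset of 0.5 narrows differences where WT is near 0. Fitted log2 fold changes were 2.87 for Clu, 9.82 for Clec1a and 6.31 for Efcab8 (9.24 without WT replicate 1), against 3.21 for Slc22a18. Those of Slfn2, Zbp1 and Ifit3 were 5.96, 5.15 and 5.31, against 9.48 for Slco2b1. Slfn2, Zbp1, Clec1a and Efcab8 reached a mean of 1 CPM only in the knockout group.

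Markers of cell types that use these carriers were set beside the results. The 5 hepatocyte markers summed to 0.368 to 0.539 CPM in WT and 1.49 to 1.98 CPM in the knockout libraries. Apoa1, the tested one, rose from 0.427 ± 0.0789 to 1.18 ± 0.139 CPM (edgeR adjusted p = 0.0104; 0.0513 with the replicate block and 0.0772 with the WT pairs summed). Alb, Ttr, Apob and Hnf4a were at 0 in WT and had 4, 15, 38 and 3 counts over the knockout libraries; those of Alb, Ttr and Hnf4a each lay in 1 library, replicates 2, 1 and 3. The 5 kidney tubule markers summed to 0.258 to 0.683 CPM in WT and 0.0948 to 0.792 CPM in the knockout libraries, with Umod and Cdh16 at 0 throughout. The 6 leukocyte markers summed to at most 0.236 CPM in WT and 0.291 CPM in the knockout libraries (Cd3e and Adgre1 at 0 throughout), and the 5 endothelial markers to at most 0.101 and 0.520 CPM (Kdr and Emcn at 0 throughout). Of 6 fibroblast markers 5 were tested and 2 rose, where 20.9% of all 13265 rows did. Col1a2, Col1a1 and Vim were not called (log2 fold changes 0.10, 0.12 and -0.05, edgeR adjusted p = 0.716, 0.750 and 0.885). Dcn rose from 0.0355 ± 0.0710 to 7.83 ± 5.29 CPM and Pdgfra from 8.01 ± 2.72 to 35.9 ± 8.43 CPM (edgeR adjusted p = 0.000803 and 0.000837), with Dcn at 0 in WT without WT replicate 4, while the list's sum ran from 3808 to 5397 CPM in WT and 3822 to 5853 CPM in the knockout libraries. The part of these markers in the carrier results was not tested.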

How the data were processed

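Each table value is a whole-number, unnormalized count of a gene in a library, as the authors deposited it; a second deposited table repeats the same values. HISAT2, StringTie and GRCm38 stand in the submitters' processing notes. The counting program, strand use and treatment of shared reads are stated in no source used here. RNA was extracted with TRIzol, per the labels' protocols. In each library fewer rows held a count of 1 (101 to 225) than of 2 (288 to 981), so intervals and the floor of 3 counts cover counting error at best.

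Rows were filtered with filterByExpr (minimum count 10, minimum total 15), scaled by TMM and fitted with edgeR 4.0.16 in R 4.3.3 (glmQLFit, glmQLFTest, two-sided, no covariates), with Benjamini-Hochberg adjustment over 13265 rows. Coordinates and exon lengths come from GENCODE M21, which held 22022 of 22036 annotated identifiers. The fit was tested on simulated data.

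The genes and lists were chosen with earlier results of these data known. Named by rule were the 8 genes, Tead1 and Tead4, every paralog of at least 1 CPM, the 3 smallest p per list (every tested gene of the neighbourhood lists) and the 3 most similar profiles; other names were chosen after their values were seen. Alternatives were 3 other scalings, 2 other filters, DESeq2 1.42.0, limma-voom (limma 3.58.1), a replicate block, an adjusted p under 0.01, the longest transcript as length, and each library left out. Summing the close WT pairs was added after the data were seen. Deviations of libraries with the same number correlated at -0.044 to 0.0002, so no pairing by number was seen. These correlations cannot exclude a pairing, and the labels do not state one.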

Additional observations from a re-analysis of the deposited data

Results flagged for a closer look

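In 13 of 156 groups of 4 libraries (78 named genes in 2 genotypes), 1 library lay so far from the other 3 that its gap to the nearest passed Dixon's 95% critical value as a share of the group's range. The 156 include groups at 0 in all 4 libraries, such as those of Slco3a1, which could not be flagged. Chance gives about 1 in 20 groups for normally spread values. That rate does not hold for Slco2b1, Dcn and Efcab8 in WT, where the other 3 libraries were at 0 and any count is flagged. Slco2b1 had 0.0683 CPM in WT replicate 2, from 2 counts, and 0 in the other WT libraries. Slco2a1 had 3.69 CPM in WT replicate 4, against 0.376 to 0.883 CPM in the others. Slc22a14 had 4.55 CPM in knockout replicate 1 (3.55 to 3.71 CPM in the others) and Slco1a5 14.8 CPM in knockout replicate 2 (10.7 to 10.96 CPM). Ptges was at 125 CPM in WT replicate 3 (98.1 to 101 CPM) and at 214 CPM in knockout replicate 1 (345 to 362 CPM). Dhcr7 and P4ha2 were high in knockout replicate 1, at 76.9 CPM (39.1 to 42.5 CPM) and 62.5 CPM (43.1 to 46.2 CPM). Arrb1 was low in that library, at 52.4 CPM (75.5 to 80.2 CPM). The neighbouring paralogs Tnfrsf23 and Tnfrsf22 were high in knockout replicate 2, at 141 CPM (83.2 to 89.95 CPM) and 132 CPM (79.8 to 86.5 CPM). Dcn had 0.142 CPM in WT replicate 4 and Efcab8 0.110 CPM in WT replicate 1, from 4 and 3 counts, and both were at 0 in the other WT libraries.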

How the results depend on the processing

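Over 101 recomputed values of the 6 tested carrier genes, 96 had the same direction and side of the threshold, 3 (all of Slco4a1) lost the call, 2 (both of Slc22a5) gained it and none changed sign. An adjusted p under 0.01, not among the 101, left 2 of the 6 called, without Slco4a1. Because these genes were chosen on this contrast, the values describe the processing and lend the calls no support. Over 1173 values of 70 other named genes 10 changed sign: Spcs2 with the WT pairs summed (-0.0146), the rest with 1 library left out. With 1 library left out Spcs2 ranged from -0.0410 to 0.0713, Slc22a29 from -0.23 to 0.43, Tnfrsf22 from -0.0482 to 0.273 and Col1a2 from -0.00643 to 0.206 on the log2 scale. The Tead4 call (edgeR adjusted p = 0.0261) was lost with upper-quartile factors (0.0692), library size alone (0.08), the WT pairs summed (0.0653) and without WT replicates 1 or 4 or knockout replicates 2 or 3 (0.0601 to 0.08). Of 5513 calls (2779 higher, 2734 lower), an adjusted p under 0.01 left 2736 (1488 and 1248) and the WT pairs summed 3134 (1652 and 1482). With 1 library left out the calls numbered 3809 to 6829, the higher ones 2041 to 3420 and the lower ones 1768 (without knockout replicate 3) to 3409. The replicate block gave 4683 calls; among named genes it ended those of Trpm5, Vdr and Apoa1, made that of Dhcr7 (adjusted p = 0.0334) and changed no other. At least 5 CPM in 4 libraries left Slco2a1 untested. Depth limits Slco2b1 in WT, which is at or under 3 counts per library; whether Slco3a1 and Slc22a17, at 0 throughout, were counted cannot be told from the table.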
